A study of Mus musculus with 6 samples.

Results

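The mouse genome names a long series of zinc finger genes Zfp followed by a number. The members described here were chosen by their measured level: genes of that series whose normalized counts averaged 50 or more across the 6 libraries. The table of normalized counts held 362 such symbols among 41255 rows, 358 of them with at least 1 read, and 263 reached the threshold. The level over both genotypes was used, and not the difference between them. Two-sided tests compared WT with R98S cells, and 261 of the 263 members had a mean of at least 50 in each genotype alone. Zfp712 (mean 52.3) and Zfp93 (mean 54.5) lay just inside the threshold and were also the only members with an R98S mean under 50. Zfp418 (mean 43.3) and Zfp593 (mean 42.0) lay just outside it.

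The cells were Ba/F3, a mouse lymphoid line that grows on interleukin-3, given human RPL10 either as WT or with the R98S substitution found in T-cell leukemia. The mouse gene Rpl10 was knocked down by a hairpin RNA in the WT and the R98S cells alike, and all received cycloheximide at 100 μg/ml for 5 min before lysis. Each genotype was represented by 3 cultures, each grown from 1 cell and sequenced as 1 polyadenylated RNA library: WT clones 28, 29 and 36, and R98S clones 11, 13 and 35. A clone therefore stands for itself as well as for its genotype, and differences between clones enter every spread given below. Because cultures were measured in bulk, fewer cells expressing a gene and less RNA per cell cannot be told apart.

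The libraries held 21786776 to 24204991 reads assigned to genes. Rpl10, the target of the hairpin, lay between 1900 and 3156 in WT and between 1883 and 3028 in R98S cells, with a log2 difference of -0.07 and an adjusted p of 0.871. Of 8 B lymphoid markers, 4, with Pax5 among them, had at most 3 reads in any library, and these 8 summed to 1290 to 1403 in WT and 1642 to 1959 in R98S cells. Of the 2 tested, Cd79b rose by 1.22 on the log2 scale (adjusted p 0.0617) and Cd79a had 0.20 (adjusted p 0.449). Of 5 genes of interleukin-3 dependent cells, 4 were tested, and the list summed to 98119 to 118045 in WT and 134078 to 158695 in R98S cells. The sum was carried by the receptor subunits Csf2rb and Csf2rb2, which rose (log2 differences 0.53 and 0.62), whereas Ptprc fell by 1.33 (adjusted p 0.00894) and Il3ra had -0.18 (adjusted p 0.432). T cell markers summed to 52.2 to 106 in WT and 152 to 179 in R98S cells, with 2 of 6 at or under 3 reads throughout. The 2 tested T cell markers rose, Cd3d by 2.17 (adjusted p 0.0112) and Lck by 1.16 (adjusted p 0.0355). The untested markers did not all follow. Cd3g, whose mean of 8.86 was too low for testing, averaged 16.4 for WT but only 1.27 for R98S. That WT average rested mainly on clone 36 (43.0), as clones 28 and 29 had 3.07 and 3.22. Among markers with a mean of at most 2.38, Cd3e and Cd4 averaged lower for R98S, and Cd8a higher. Mast and myeloid markers summed to 69.6 to 198 and 48.0 to 451, erythroid markers to 202 to 683 and 367 to 581, and stromal markers to 3.07 to 18.3 and 8.33 to 15.9. Such sums hide single genes. Of 3 tested mast and myeloid markers, only Lyz2 had an adjusted p under 0.1 (log2 difference -3.34, adjusted p 0.0366). Of 2 tested erythroid markers, only Hba-a1 did (-3.52, adjusted p 0.0389). The part of these markers in the differences of the zinc finger genes was not tested.

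Most Zfp proteins are C2H2 zinc finger proteins: each finger folds around a zinc ion held by a pair of cysteines and a pair of histidines, and rows of fingers read DNA. Many carry a KRAB box, which recruits the corepressor Trim28 and with it the histone methyltransferase Setdb1 to silence chromatin, above all at retroviral elements. A few of the series are of another kind, such as Zfp36 and its relatives, whose CCCH fingers bind AU-rich elements of mRNA and bring in the machinery that removes poly(A) tails. Coding sequences from GENCODE were found for 262 of the 263 members. A C2H2 letter pattern occurred in 246 of them, with a median of 10 fingers and a maximum of 35 in Zfp142. A KRAB pattern occurred in 118 members and a SCAN pattern, a dimerization domain, in 6. The 16 members without a match to the strict C2H2 pattern included the 3 CCCH genes Zfp36, Zfp36l1 and Zfp36l2, and also Zfp106, Zfp326, Zfp503 and Zfp703.

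The repeat that gives the series its name is shown by the first finger of 3 members on the results below, on GRCm38, with the codons of the cysteines and histidines that hold the zinc in capitals.
Zfp109, chr7:24229047-24229130 (-): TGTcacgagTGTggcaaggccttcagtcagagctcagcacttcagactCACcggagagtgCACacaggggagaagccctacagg
Zfp93, chr7:24275450-24275533 (+): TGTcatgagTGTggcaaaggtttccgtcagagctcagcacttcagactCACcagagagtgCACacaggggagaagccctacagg
Zfp560, chr9:20348641-20348724 (-): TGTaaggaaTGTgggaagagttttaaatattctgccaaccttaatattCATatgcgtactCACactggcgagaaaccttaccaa
The 84 bases of Zfp109 and Zfp93, genes that lie beside each other, differed at 6 positions, whereas either differed from Zfp560, the member that fell most, at 38. Such likeness between genes limits how surely a read can be assigned to 1 of them. Over whole transcripts, however, a median of 1.61% of a member's stretches of 50 bases recurred in another gene, 69 members shared none, and 9 members shared at least 50%, none of which was called. Among the 59 members that shared at least 10% of their stretches, 7 (11.9%) were called, against 19.1% of the rest and 23.9% of all tested genes.

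The Zfp36 family is shown by its first CCCH finger, with the codons of the zinc-binding cysteines and histidine in capitals, because 1 of its 3 members was called.
Zfp36, chr7:28378158-28378217 (-): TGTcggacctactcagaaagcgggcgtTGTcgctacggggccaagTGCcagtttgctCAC
Zfp36l1, chr12:80110189-80110248 (-): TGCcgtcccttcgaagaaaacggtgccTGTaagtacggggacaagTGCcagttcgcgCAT
Zfp36l2, chr17:84186668-84186727 (-): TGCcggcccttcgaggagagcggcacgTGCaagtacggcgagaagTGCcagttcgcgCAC
The 60 bases of Zfp36l2 differed from those of Zfp36l1 at 11 positions and from those of Zfp36 at 20.

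Of the 263 members, 46 differed between R98S and WT cells at an adjusted p under 0.1 (limma, p-values adjusted over 11550 genes), or 17.5%, where 23.9% of all tested genes did. Levels were higher in R98S cells for 20 members (7.6%, background 10.7%) and lower for 26 (9.89%, background 13.1%). In 87 members (33.1%) the 3 WT values did not overlap the 3 R98S values, and 37.3% of all tested genes behaved in that way. All 46 called members were among the 87. A difference of at least 2-fold past the threshold was found for 6 members (2.28%), against 6.68% of all genes tested. The median log2 difference of the members was -0.06, and that of all tested genes was -0.01. The middle 50% of members spanned 0.41 on the log2 scale and the middle 50% of all tested genes 0.54. The shares of called members were thus below the background in both directions, and no test of that gap was made. Of the 10050 tested genes with a mean of at least 50, the level required of members, 25.1% were called. The other values given for all tested genes, among them the 2-fold share and the spread, also cover genes below that level. How much of those gaps comes from level was not tested.

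**Figure D1:**
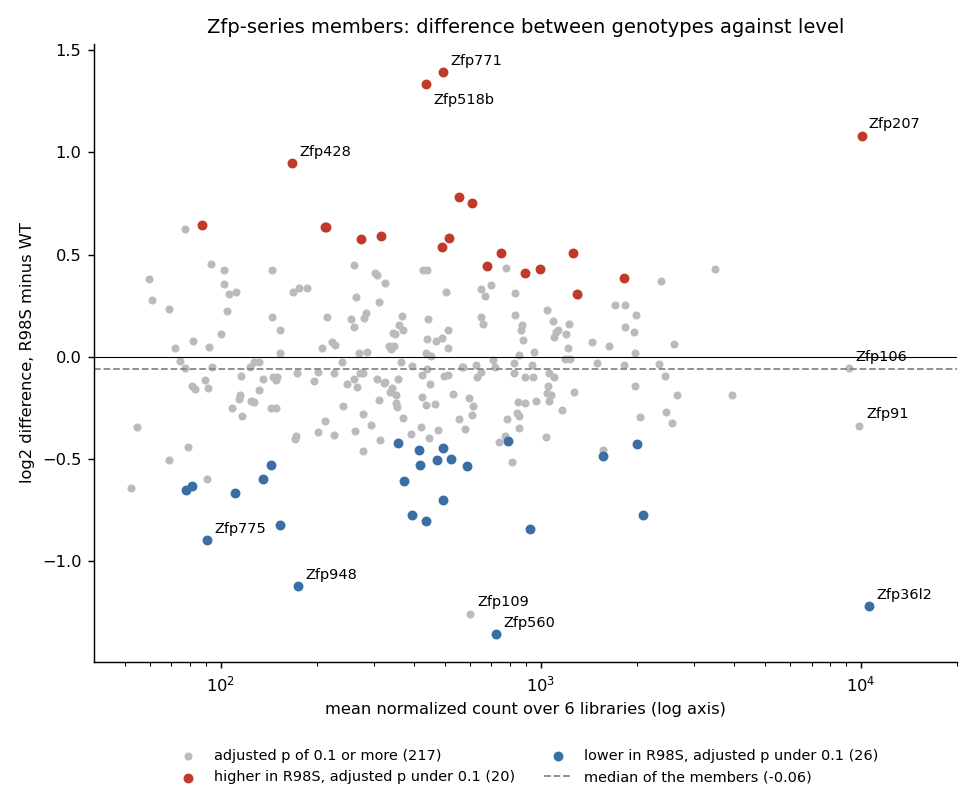
Log2 difference between R98S and WT cells (vertical axis) against the mean normalized count over 6 libraries (horizontal log axis) for the 263 members, 1 point each. Called members, 20 higher in red and 26 lower in blue, are spread over all levels, with Zfp207 and Zfp36l2 far to the right; Zfp109, in grey, is low on the axis without being called.

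The abundant end of the series held the clearest opposite pair. Zfp207, also known as BuGZ, binds microtubules and loads the checkpoint protein Bub3 onto kinetochores in mitosis, and it lies at chr11:80383279-80405733. Values are listed throughout in the order of clones 28, 29 and 36 for WT, then of clones 11, 13 and 35 for R98S. WT cells gave 6988, 6706 and 5624 normalized counts of Zfp207, and R98S cells gave 15036, 13262 and 12565. The lowest R98S clone exceeded the highest WT clone by a wide margin. The means were 6439 ± 720 (SD, n = 3) and 13621 ± 1274 (SD, n = 3), a 2.12-fold increase with a log2 difference of 1.08, a standard error of 0.12 and an adjusted p of 0.00199.

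Zfp36l2 (chr17:84183931-84187947) promotes the decay of mRNAs with AU-rich elements and acts in the development of lymphocytes. It was the most abundant member per kilobase of exon, with a mean of 3009 normalized counts per kilobase where the median member had 91.5. WT cells gave 14203, 12200 and 18236 normalized counts, and R98S cells gave 6415, 7392 and 5291. Every WT clone lay above every R98S clone. The means were 14880 ± 3074 (SD, n = 3) in WT and 6366 ± 1052 (SD, n = 3) in R98S cells, 2.34-fold higher in WT, with a log2 difference of -1.22, a standard error of 0.18 and an adjusted p of 0.00567. An annotated transcript on the opposite strand, AC132455.1, overlaps its exons by 105 bases.

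The relatives did not pass the threshold. Zfp36, or tristetraprolin, which limits inflammatory cytokine mRNAs, measured 609, 902 and 1378 in the WT clones and 670, 826 and 749 in the R98S clones, and the WT clones spanned the R98S range (adjusted p 0.491). Without WT clone 36 its log2 difference was 0.01 in place of -0.29. Zfp36l1 measured 614, 526 and 583 in WT and 385, 655 and 671 in R98S cells, an overlap as well (log2 difference -0.05, adjusted p 0.897). Differences between these members were not tested. Of the 32 tested genes of mRNA deadenylation and AU-rich element binding, 4 passed the threshold (12.5%, against 23.9% of all tested genes), 2 in each direction. The median log2 difference of the 32 was -0.03. Cnot1, the scaffold of the CCR4-NOT deadenylase to which Zfp36 proteins bind, fell by 0.51 on the log2 scale (adjusted p 0.0172). The genes around Cnot1 were lower too, and with the shift of the 30 nearest tested genes removed its log2 difference was 0.05 (adjusted p 0.742). Btg1, which activates deadenylation, fell by 1.6 (adjusted p 0.00326), and by 1.53 with that shift removed (adjusted p 0.00769). Cnot11, another CCR4-NOT subunit, rose by 0.31 (adjusted p 0.0878), and Tial1, which binds AU-rich elements, rose by 0.34 (adjusted p 0.0994). With the shift removed neither was called: Cnot11 had a log2 difference of -0.0036 (adjusted p 0.982) and Tial1 of -0.05 (adjusted p 0.760).

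The largest differences of the series belonged to less abundant members. Zfp771 (chr7:127244274-127254803) measured 328, 269 and 219 in WT and 819, 559 and 769 in R98S cells. The groups were apart, with R98S clone 13 the lowest of the R98S clones. The log2 difference was 1.39 with a standard error of 0.21 and an adjusted p of 0.00615. Zfp518b (chr5:38668484-38684826) measured 215, 273 and 254 in WT and 703, 507 and 678 in R98S cells, again apart and again lowest among R98S cells in clone 13. Its log2 difference was 1.34 with a standard error of 0.18 and an adjusted p of 0.00392.

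Zfp560 (chr9:20345136-20385177), with 15 fingers and a KRAB pattern, fell most. Its WT values were 1142, 712 and 1304 and its R98S values 431, 368 and 397, so the WT clones varied widely while the R98S clones lay close together. The log2 difference was -1.36 with a standard error of 0.22 and an adjusted p of 0.00834. Zfp948 (chr17:21567008-21588699), also a KRAB member, measured 217, 228 and 269 in WT and 138, 99.0 and 93.4 in R98S cells, without overlap (log2 difference -1.12, adjusted p 0.0139). The remaining 7 of the 10 lowest were, in order, Zfp775 at -0.90, Zfp53 at -0.84, Zfp28 at -0.82, Zfp866 at -0.80, Zfp358 at -0.78, Zfp26 at -0.77 and Zfp810 at -0.70 in log2 difference. Zfp53, Zfp28, Zfp866, Zfp26 and Zfp810 carry the KRAB pattern, and Zfp775 and Zfp358 do not. Zfp26 overlaps an opposite-strand transcript, Gm26733, over 2004 bases of exon.

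The remaining 7 of the 10 highest were Zfp428 at 0.95, Zfp629 at 0.78, Zfp280d at 0.75, Zfp551 at 0.65, Zfp691 at 0.64, Zfp764 at 0.63 and Zfp672 at 0.59. Only Zfp551 and Zfp764 of these carry the KRAB pattern. The calls of Zfp551, Zfp691 and Zfp764 were the least secure of the 20 named extremes: they held in 10, 11 and 8 of 16 alternative fits. With the shift of the 30 nearest tested genes removed, Zfp629, Zfp691, Zfp764 and Zfp866 were no longer called (adjusted p 0.130, 0.289, 0.352 and 0.102). Zfp428 (231 bases) and Zfp280d (746 bases) overlap opposite-strand transcripts in their exons. Altogether 12 of the 46 called members passed in every one of the 16 alternatives, 5 of them higher (Zfp771, Zfp518b, Zfp207, Zfp428 and Zfp280d) and 7 lower (Zfp560, Zfp36l2, Zfp948, Zfp53, Zfp358, Zfp26 and Zfp810). The share of all called genes that passed in every alternative is not given here, so the 12 cannot be set against a background.

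**Figure D2:**
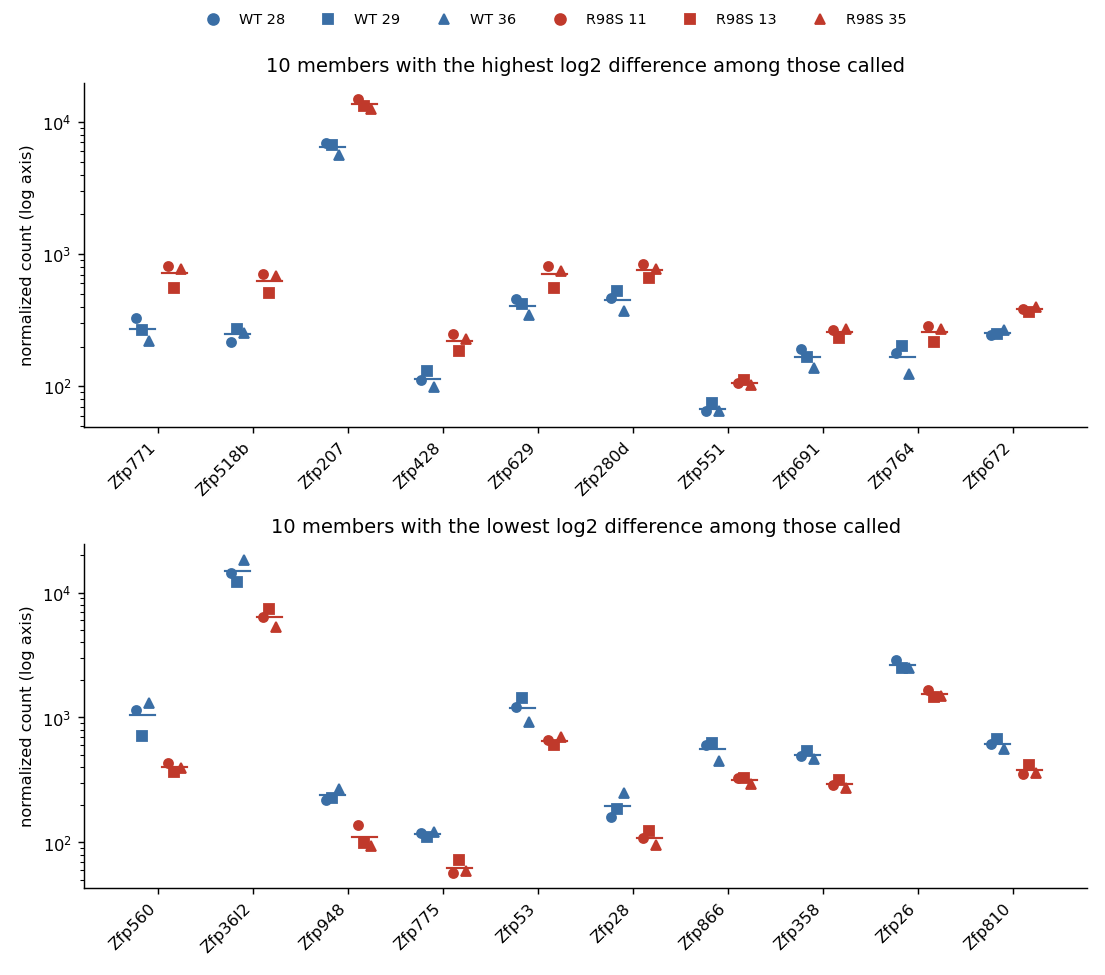
Normalized counts by library (vertical log axis) of the 10 called members with the highest (top) and the 10 with the lowest (bottom) log2 difference. Each symbol is 1 clone and each short line the mean of 3 clones; in all 20 genes the blue WT points and the red R98S points do not overlap.

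Among the members with well described functions, 21 of a list of 23 reached the level threshold. Of the 21, 4 were called, where 23.9% of all tested genes were. Besides Zfp207 and Zfp36l2, the called members of the list were Zfp809 and Zfp217. Zfp809 recognizes the proline tRNA primer binding site of retroviruses and silences them through Trim28. It measured 645, 557 and 654 in WT and 883, 920 and 834 in R98S cells, without overlap, with a log2 difference of 0.51 and an adjusted p of 0.0305. Zfp217, a partner of the CoREST and Lsd1 corepressors, measured 2394, 2335 and 2131 in WT and 1699, 1760 and 1638 in R98S cells. All WT clones exceeded all R98S clones, with a log2 difference of -0.43 and an adjusted p of 0.0281. Without WT clone 29 neither Zfp809 (adjusted p 0.116) nor Zfp217 (adjusted p 0.102) was called. Zfp217 was not called without WT clone 28 either (adjusted p 0.132).

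The other 17 did not pass. Among the KRAB members with known targets, Zfp445, a guardian of imprints, measured 2311, 2429 and 2368 in WT and 2534, 2111 and 2301 in R98S cells. Zfp568, which silences a placental Igf2 transcript, measured 2180, 2034 and 1359 against 1938, 1671 and 1713. Both sets of values overlapped fully. Zfp932, which represses endogenous retroviruses, gave 282, 282 and 287 in WT and 435, 285 and 389 in R98S cells. R98S clone 13 lay within the WT range, and the adjusted p was 0.221, or 0.0442 without that clone. Zfp57, the best known keeper of imprints, and Zfp521, a partner of early B cell factor, were not members: no library had more than 2 reads of Zfp57 or 3 of Zfp521.

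Of the activators and architectural factors, Zfp143 measured 509, 565 and 654 in WT and 785, 646 and 740 in R98S cells (log2 difference 0.33, adjusted p 0.161). Zfp410, whose main target is the chromatin remodeler gene Chd4, measured 1244, 956 and 1259 in WT and 1316, 1067 and 1351 in R98S cells (adjusted p 0.650). Chd4 itself was 12447, 12640 and 12576 in WT and 15641, 14729 and 15960 in R98S cells (log2 difference 0.30, adjusted p 0.0693). Zfp143 overlapped between genotypes by R98S clone 13 alone, Zfp410 overlapped broadly and Chd4 did not overlap. Zfp335, needed for neural and T cell development, measured 611, 613 and 570 in WT and 724, 715 and 762 in R98S cells, apart but at an adjusted p of 0.121.

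The GC-rich element binders Zfp148 and Zfp281 had log2 differences of 0.06 and 0.17, Zfp384 had -0.26 and Zfp131 0.05, with adjusted p between 0.224 and 0.815. Zfp292 had 0.43 (adjusted p 0.156) and Zfp318, which governs the choice of IgD in B cells, had -0.03 (adjusted p 0.922). The RNA-associated members were Zfp106 (log2 difference -0.05, adjusted p 0.890) and Zfp326, a link between splicing and transcript elongation (-0.22, adjusted p 0.265). Zfp91, a ubiquitin ligase, measured 10509, 11752 and 10552 in WT and 9991, 6724 and 9632 in R98S cells. Its groups did not overlap, but R98S clone 13 stood well below the rest and the adjusted p was 0.189. Zfp91, Zfp106 and Zfp706 made up, with Zfp207 and Zfp36l2, the 5 most abundant members per kilobase. Zfp706 gave 794 normalized counts per kilobase and a log2 difference of -0.19 (adjusted p 0.320).

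Sorted by domain, the 118 members with a KRAB pattern had 5 called higher and 13 called lower (15.3% in all), with a median log2 difference of -0.10. The 124 with C2H2 fingers but neither a KRAB nor a SCAN pattern had 13 higher and 9 lower (17.7%), with a median of -0.03. Of the 6 SCAN members, Zfp191 and Zfp446 were called, both higher. Of the 16 without a C2H2 match, 4 were called (25%), near the 23.9% of all tested genes. All 4 were lower (Zfp36l2, Zfp703, Zfp503 and Zfp839). Of 32 genes for corepressors of KRAB proteins, 7 were called (21.9%), 4 higher and 3 lower, with a median log2 difference of 0.05. Trim28 measured 7618, 7505 and 7594 in WT and 9472, 7234 and 10273 in R98S cells (adjusted p 0.288), and Setdb1 had a log2 difference of -0.24 (adjusted p 0.230). Among the 7 called, Dnmt3a, a DNA methyltransferase, rose by 0.66 and Atf7ip, a cofactor of Setdb1, fell by 0.44 on the log2 scale. Sister families named after fingers with other domains gave 3 called of 8 Zscan genes (1 higher), 2 of 8 Zkscan genes (both lower) and 7 of 33 Zbtb genes (1 higher). These families are small, and no test compared them with the Zfp members. The share to set beside all counts of called genes in this paragraph is 23.9%, that of all tested genes.

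The libraries differed in how the members sat as a set. For each gene the deviation of a library from the mean of the 6 was taken on the log2 scale, and its median over the 263 members was 0.06, 0.05 and -0.02 for WT and 0.05, -0.14 and 0.01 for R98S cells, in the order of clones used above. Over the 10050 tested genes with a mean of at least 50 the same medians lay between -0.02 and 0.02. R98S clone 13 held the lowest of the 6 values for 94 members (35.7%), against 19.6% of those 10050 genes. The low position of clone 13 appeared in KRAB members (-0.16) and in C2H2 members without KRAB or SCAN (-0.13) alike, whereas the KRAB members stood highest in WT clone 29 (0.13). Without R98S clone 13, 61 members were called, 33 higher and 28 lower, with 27.9% of all genes called in that fit. Leaving out WT clone 28, WT clone 29 or R98S clone 11 gave 17, 19 and 24 calls (11.5%, 12.6% and 13.7% of all genes). Counts of members higher or lower in R98S cells thus varied with the clones used, and not with clone 13 alone.

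**Figure D3:**
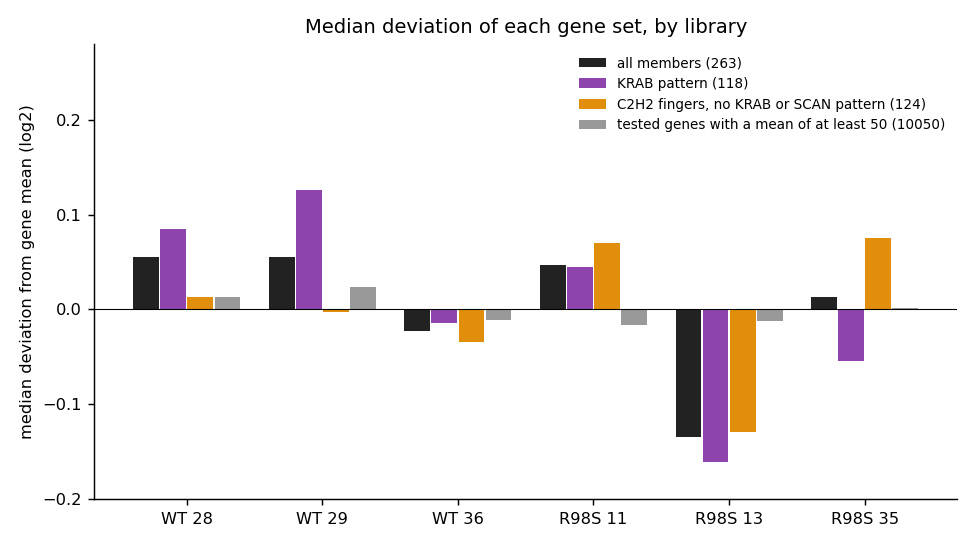
Median log2 deviation of each library from the gene mean (vertical axis) for all members, KRAB members, C2H2 members without KRAB or SCAN, and all tested genes with a mean of at least 50; each bar is 1 library. The bars of R98S clone 13 reach -0.16 to -0.13 for the 3 sets of members and stay near 0 for all tested genes.

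No member was confined to 1 genotype. The lowest count of any member in any library was 24 reads, and none had 3 or fewer reads throughout a genotype. Of 10050 genes with a mean of at least 50, 22 (0.219%) did. Below the threshold, 18 Zfp symbols had at most 3 reads in every clone of 1 genotype and more in the other. Most of the 18 had at most 5 reads in any clone of the other genotype, too few to call a gene on. All but 1 of the 18 had a mean under 10. The exception was Zfp608, with normalized counts of 77.8, 36.5 and 16.0 in WT and 0.938, 2.04 and 1.85 in R98S cells. All R98S clones were under the floor of 3 reads. The WT mean of 43.5 was 15.1 times that floor, but the WT clones differed widely among themselves. Zfp9 ran the other way, with 1 read in each WT clone and normalized counts of 15, 9.19 and 8.33 in R98S cells. Its R98S mean was 3.50 times the floor of 3 reads. Zfp608 and Zfp9 were named after their values were seen.

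The most uneven member was Zfp109 (chr7:24227572-24237560). Its WT values were 60.4, 77.4 and 3153, the last in clone 36, and its R98S values were 97.6, 86.8 and 128. WT clone 36 thus stood 24.7-fold above the next library, while the other 5 libraries were near each other. The WT mean of 1097 ± 1781 (SD, n = 3) rested on that clone, and neither the log2 difference of -1.26 (adjusted p 0.543) nor the value of 0.58 without clone 36 (adjusted p 0.198) passed. Zfp93, its neighbour, measured 37.9, 25.8 and 141 in WT and 37.5, 43.9 and 40.7 in R98S cells, so that clone 36 was 3.22-fold above the next. On the other side, Zfp111, with a mean of 41.1 not a member, measured 10.2, 3.22 and 202 in WT and 12.2, 12.2 and 6.48 in R98S cells. Zfp109 and Zfp93 were the 2 members with 1 library at least 2-fold above all others. Every value of Zfp93 outside clone 36 lay under the level required of members. Zfp93 was thus a member only because of clone 36, the same library that made it uneven.

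Genes farther out had ratios nearer 1. Zfp235 and Zfp112 on the side of Zfp111 had ratios of clone 36 to the highest other library of 0.51 and 1.55, and Zfp61 and Zfp94 on the side of Zfp93 had 0.96 and 0.98. Zfp61, for example, measured 444, 489 and 530 in WT and 513, 550 and 538 in R98S cells. Stretches of 50 bases common to a pair of the trio numbered 66 for Zfp109 and Zfp93 (2.25% of those of Zfp109), 94 for Zfp109 and Zfp111 (3.21% of those of Zfp109) and 122 for Zfp93 and Zfp111 (3.41% of those of Zfp93). These genes were named after their values were seen.

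**Figure D4:**
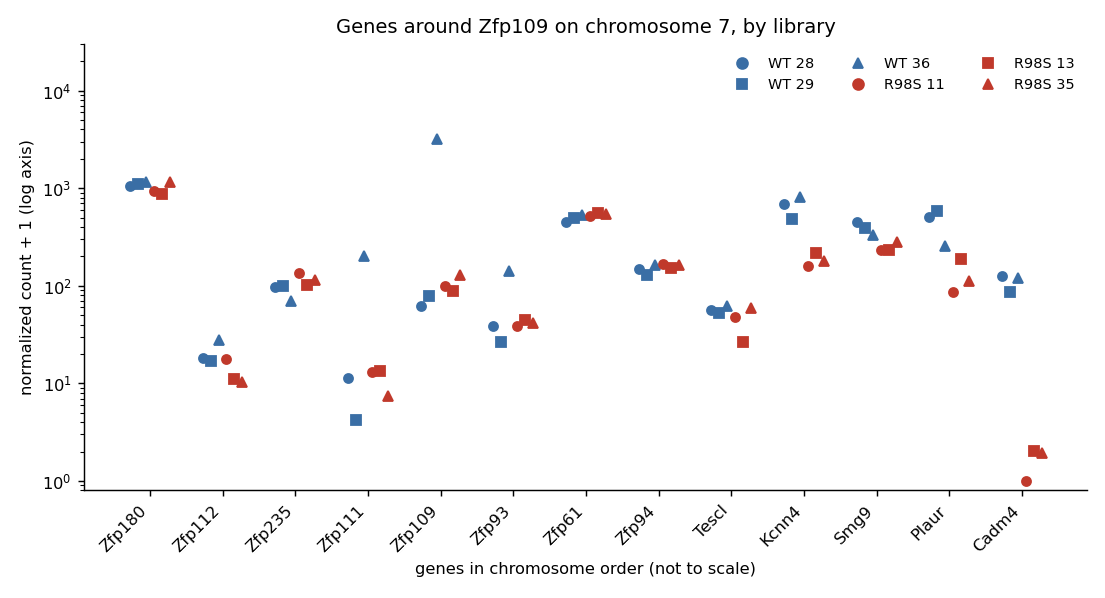
Normalized counts plus 1 (vertical log axis) of the genes within 250 kb of Zfp109 that had a mean of at least 3, in chromosome order, with 1 symbol per library. WT clone 36 (blue triangles) stands above all others at Zfp111, Zfp109 and Zfp93, and lies with the other libraries at Zfp180, Zfp61 and Zfp94.

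The 150 bases before the first RefSeq start of each of the 3 genes (GRCm38.p6) are shown because the genes moved together in WT clone 36, beside those of Zfp948, which fell in R98S cells. For Zfp111 the stretch lies inside the gene as GENCODE places it (chr7:24193947-24211443, minus strand), so RefSeq and GENCODE differ in where that gene starts. Capitals mark matches, on either strand, to ACANNTCCC, letters found in the long site that Zfp143 binds.
Zfp109, chr7:24237599-24237748 (-): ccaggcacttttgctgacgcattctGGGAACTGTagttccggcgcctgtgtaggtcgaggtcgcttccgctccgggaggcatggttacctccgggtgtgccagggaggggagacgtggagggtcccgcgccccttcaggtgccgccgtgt
Zfp93, chr7:24270268-24270417 (+): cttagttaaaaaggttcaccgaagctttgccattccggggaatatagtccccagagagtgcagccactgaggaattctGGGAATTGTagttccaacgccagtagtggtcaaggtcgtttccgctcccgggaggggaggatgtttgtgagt
Zfp111, chr7:24208150-24208299 (-): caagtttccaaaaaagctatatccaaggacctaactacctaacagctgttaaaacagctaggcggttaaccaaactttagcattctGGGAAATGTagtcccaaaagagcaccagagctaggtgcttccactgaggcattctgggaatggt
Zfp948, chr17:21566828-21566977 (+): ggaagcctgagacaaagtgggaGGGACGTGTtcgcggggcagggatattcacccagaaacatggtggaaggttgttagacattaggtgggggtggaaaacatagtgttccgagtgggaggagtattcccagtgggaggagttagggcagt
In windows of 300 bases around the start (250 before it), the letters occurred at 58 of the 223 members with a RefSeq promoter (26.0%), at 9.31% of the promoters of all tested genes and at 6.45% of all promoters. KRAB members carried them at 31 of 106 (29.2%). Of the 58 members with the letters, 6 were called (3 higher and 3 lower, 10.3%). Of the other members with a promoter 33 were (20%), against 23.9% of all tested genes. The GC box GGGCGG went the other way, at 48.0% of member promoters and 64.6% of those of tested genes. The ETS core CCGGAAG was found at 21.1% and 20%, and TATAAA at 5.38% and 6.48%. Member promoters held a median of 15 CG dinucleotides, KRAB member promoters 11 and promoters of tested genes 21. A match of letters is a description and not a measured site.

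Zfp genes lie in runs. Taking Zfp genes with gaps of at most 500 kb, 22 runs held at least 3 members and together 146 members, 26 of them called. The share of all tested genes called was 23.9%. In 13 of the 22 runs at least 1 member was called, and in 2 runs members were called in both directions. The largest, of 17 members on chr13:67038596-67792512, had none called, with log2 differences from -0.64 to 0.29. Of 16 members on chr17:21008903-23564238, Zfp948 and Zfp53 fell and Zfp758 rose. On chr9:22055411-22307648, Zfp810 and Zfp599 fell while Zfp809, lying beside them, rose.

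All members lay on 1 side of 0 in 8 runs, 5 of which had only 3 members. The 3 larger ones follow. On chr7:127233061-127885996 all 10 members had a log2 difference above 0, from 0.16 to 1.39, and Zfp771, Zfp629, Zfp764 and Zfp646 were called. The genes around them moved too: the 30 nearest tested genes of a member, other members among them, had a median shift of 0.36 (median over the 10), close to the members' own median of 0.40. With that shift removed, 1 of the 10 members was called, and 25.3% of all genes in that fit. By library the run's median deviation was -0.10, -0.08 and -0.57 for WT and 0.27, 0.10 and 0.37 for R98S cells. WT clone 36 was thus the lowest, and without it all 10 members were still above 0, with a median of 0.29 and 2 called (21.8% of all genes in that fit). Leaving out WT clone 28 or 29, or R98S clone 11 or 35, also gave 2 calls (11.5%, 12.6%, 13.7% and 17.4% of all genes). Leaving out R98S clone 13 gave 5, in a fit that called 27.9% of all genes.

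On chr8:69209038-69791178 all 4 members, each with a KRAB pattern, lay below 0, and Zfp866, Zfp868 and Zfp869 were called, with a regional shift of -0.33. None of the 4 was called with that shift removed. Leaving out R98S clone 13 gave 4 calls (27.9% of all genes in that fit). Leaving out any other clone gave 1 (11.5% to 21.8% of all genes). On chr9:20345136-20605409 all 5 members lay below 0, from -1.36 to -0.29, and Zfp560, Zfp26 and Zfp846 were called. Here the surrounding genes shifted by -0.07, and 3 members were still called lower with the shift removed. R98S values of this run were lowest in clone 13, with a median deviation of -0.45, and highest in clone 11, with -0.06.

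**Figure D5:**
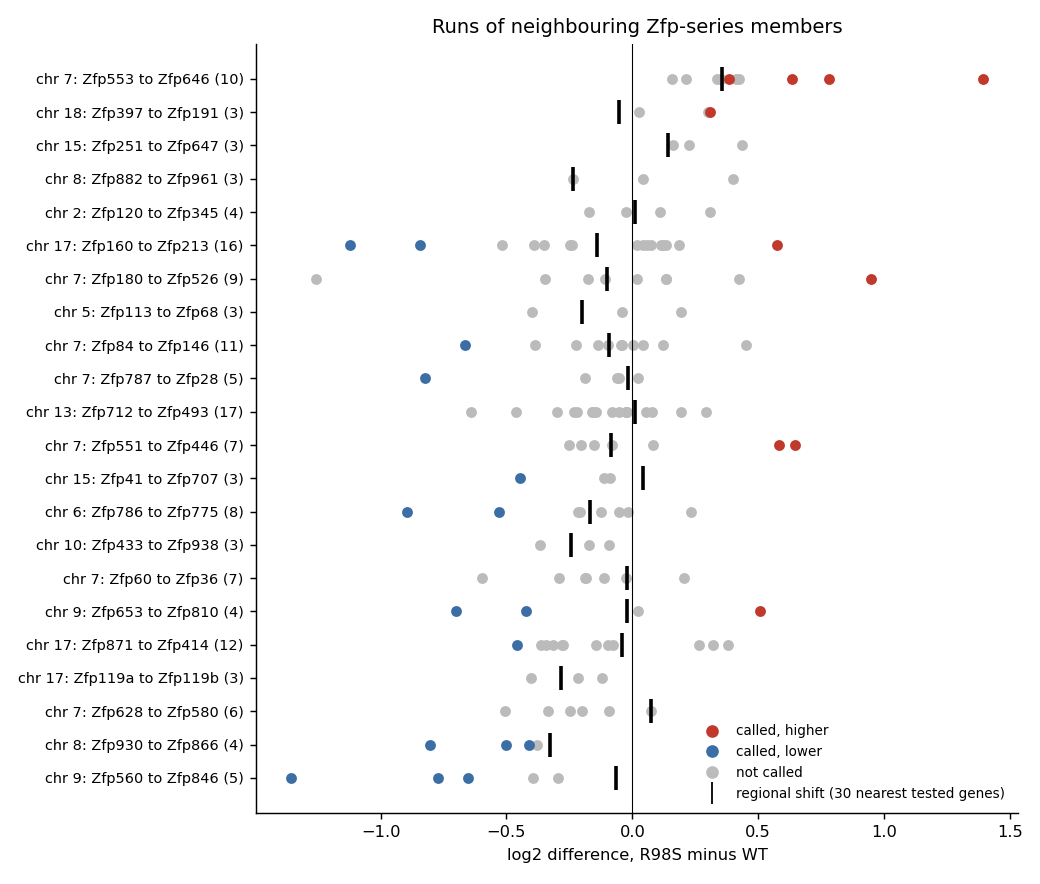
Log2 difference between R98S and WT cells (horizontal axis) of the members of 22 runs of neighbouring Zfp genes, 1 row per run, with the number of members in brackets; the black tick is the shift shared by the 30 tested genes closest to each member. The top row, from Zfp553 to Zfp646, lies to the right of 0 together with its tick, and the bottom row, from Zfp560 to Zfp846, lies to the left of 0 with its tick near 0.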

How the data were processed

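The authors removed reads of ribosomal and transfer RNA with Bowtie2, aligned the rest to mm10 with TopHat and counted reads per gene. The submitters' processing notes also name SAMtools, HTSeq and DESeq2; the strand setting of the count is not given in the sources used here. The deposited signal is a read count divided by a DESeq2 size factor. Values divided by the worth of 1 read were whole (within 0.001) for 100% of values in every library, which gave 21786776 to 24204991 reads.

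Genes with a mean of at least 10 (11550) were tested with limma (3.58.1, R 4.3.3) with an intensity trend on log2(normalized count + 1), which understates changes of low genes. P-values were two-sided and adjusted by the Benjamini-Hochberg method over all tested genes, with a threshold of 0.1. Clone libraries were the replicates. Alternatives were edgeR (4.0.16, 2746 genes called) and DESeq2 (1.42.0) on the recovered reads, other pseudocounts, filters and scalings, removal of the median deviation of the 30 nearest tested genes, and leaving out each clone. On simulated data 99% of 200 changed genes among 11550 were recovered, and 14.7% of the calls made were of unchanged genes. That share of unchanged genes was larger than the threshold of 0.1 allows. Whether the recovery holds for differences as small as most of those called here was not tested. Locations, coding sequences and overlaps came from GENCODE M21 (GRCm38) and promoters from RefSeq; domains were letter patterns.

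Of the Zfp series and of the marker lists, 1 gene each is not reported here. Members and lists were chosen with earlier results of these data known. Named members were 23 genes of described function, the 10 highest and 10 lowest called without overlap, the 5 most abundant per kilobase of exon, those beside the threshold of 50, and any with at most 3 reads throughout 1 genotype. Runs of neighbours and other genes named were chosen after their values were seen. Counts and floors cover counting error only.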

Additional observations from a re-analysis of the deposited data

How the results depend on the processing

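Of 263 members, 46 were called (20 higher, 26 lower). Without an expression filter 30 were called, 16 of them lower. In that fit 8.94% of 25345 genes were called, genes with a mean under 10 included, so that share is not a like background for the members. At an adjusted p threshold of 0.05, 29 were called (13 higher and 16 lower), against 14.9% of all genes. Leaving out 1 clone gave 17 to 61 calls, 8 to 33 higher and 9 to 28 lower. Of the WT clones, dropping clone 28 left 17 and clone 29 left 19; of the R98S clones, dropping clone 11 left 24 and clone 13 left 61. Called genes moved alike over the whole table, from 23.9% to 11.5%, 12.6%, 13.7% and 27.9% in these 4 fits. Other pseudocounts, scalings and filters, a fit without trend, edgeR, DESeq2, regional correction and stricter membership gave counts within 1.5 times those reported, and so did leaving out members that share at least 10% of their stretches, chosen after seeing the data. At most 10 reads throughout 1 genotype was met by 0 members. No paired analysis was possible because clone numbers differ between the genotypes.

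Over 43 named genes, 664 of 731 alternative values kept direction and side of the threshold, 32 lost it, 9 gained it and 26 changed sign. All 26 belonged to uncalled genes. The log2 difference became 0.0047 for Zfp445, 0.0019 for Zfp568 and 0.012 for Zfp318 with a common upper quartile. It became 0.0018 for Zfp36l1, 0.0023 for Zfp106 and 0.0069 for Zfp318 with edgeR, and 0.0025 for Zfp318 with DESeq2. With the regional shift removed it became 0.14 for Zfp445, 0.053 for Zfp568, -0.067 for Zfp281 and 0.11 for Zfp326. Leaving out 1 clone gave ranges of -0.58 to 0.0085 for Zfp36, -0.19 to 0.21 for Zfp36l1, -0.10 to 0.028 for Zfp445, -0.25 to 0.090 for Zfp568, -0.31 to 0.10 for Zfp106, -0.016 to 0.22 for Zfp410, -0.056 to 0.18 for Zfp131, -0.20 to 0.13 for Zfp318, -0.84 to 0.37 for Zfp93 and -2.26 to 0.58 for Zfp109. The cause was not tested. The lowest count of a member in any library was 24 reads.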
